A study of Mus musculus with 4 samples.

Results

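The genes described here are those of the amyloid precursor family (App, Aplp1 and Aplp2), presenilin 2 (Psen2), tau (Mapt) and the prion protein (Prnp) in area CA1 of the mouse hippocampus. They were chosen by name. All probe sets whose array annotation gives exactly 1 of these 6 symbols were taken, which gave 9 of 12422 probe sets, and 8252 symbols have at least 1 such probe set. The samples were 4 arrays of total CA1 RNA, each from handled young C57BL/6J males that received no other treatment. Handling was therefore shared by all samples, and there was no unhandled, shocked or mutant group. RNA was taken when other, experimental mice were 1, 2, 4 and 6 hours past their last shock, with 1 array at each time. The exact age is not in the labels, nor is the number of mice behind each sample. Time, animal, dissection and array cannot be told apart, and in whole tissue fewer cells of a type cannot be told apart from less RNA per cell.

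The amyloid precursor protein is a membrane protein that proteases called secretases cut in steps. An alpha- or beta-secretase removes the outer part, and gamma-secretase then cuts within the membrane. The beta and gamma cuts release the amyloid-beta peptide that accumulates in plaques in Alzheimer's disease. Aplp1 and Aplp2 encode relatives of App that lack the amyloid-beta sequence, and presenilins are the catalytic subunit of gamma-secretase. Tau binds and stabilises microtubules, mainly in axons, and forms the tangles of Alzheimer's disease. The prion protein is a glycoprotein anchored to the outer cell surface, and its misfolded form is the agent of prion disease. All of these genes are active in healthy brain, where hippocampal neurons express App, tau and the prion protein strongly.

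Signals are printed as deposited, on a linear scale, in arbitrary units. Differences are log2 values after quantile normalization, which gives every array the same distribution of values, with low values raised to a floor of 35.1. Unless stated otherwise, a difference sets 1 sample against the mean of the other 3 and carries the SD of those 3. It has no test, because each time had 1 sample. A probe set was tested for a linear trend over the hours if its mean lay at or above the 40th percentile, and 7 of the 9 passed. The 2 that did not pass are the Aplp1 probe set and 1 of the 2 for Aplp2. Since probes differ in brightness, no probe set's level was set against that of another, other than the 3 for Mapt, whose ratios are followed over the samples.

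The samples were checked first. CA1 markers were present: Wfs1, a marker of CA1 pyramidal neurons, had signals of 1964 to 2797. Of 9 listed CA1 markers 5 had a probe set, and all 5 passed the filter on low values, as did 7453 of all 12422 probe sets. Calb1, made by dentate granule neurons but also by CA1 neurons, had 1545 to 1755, while Prox1, which defines granule neurons, had 25.1 to 59.8. Of the other dentate markers, Dsp had 175 to 330 and passed the filter, and Tdo2 had 38.0 to 162 and did not. Of the CA3 and CA2 markers, Rgs14 had 5017 to 5790 and Bok 645 to 845, while Pcp4 and Iyd did not pass. How much tissue of neighbouring fields the samples held was not tested. The 1-hour sample stood apart in RNA quality, with a Gapdh 3' over 5' signal ratio of 4.52 against 1.18 to 1.37 in the other 3. For beta-actin, the second control transcript, the ratio was also highest there but the gap was small, 2.34 against 1.76 to 2.00. It also carried more choroid plexus signal. The 6 markers of that tissue with a probe set summed to 3464 in it and to 1062 to 1319 in the others, and without Ttr, which had 2246 in it and 143 to 353 in the others, to 1218 against 906 to 967. Of the 4 tested markers, Ttr, Calml4 and Kl were higher there, while Igfbp2 lay within 0.004 log2 units of the others' mean, and none of the 6 was under the floor in all samples. The part of RNA quality and of choroid plexus in the results below was not tested.

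Tau had the widest range among the 7 tested probe sets, and the high value lay in the 1-hour sample. The array carries 3 Mapt probe sets, and all 3 were highest at 1 hour, by different amounts. The probe set 102431_at had signals of 9518, 3991, 4611 and 3925 at 1, 2, 4 and 6 hours. The 1-hour value stood alone, and the other 3 lay close together. It was 2.09-fold above the mean of the others (log2 difference 1.06, SD of the others 0.12). The probe set 102742_g_at had 5332, 3320, 3762 and 3076. Its order over the samples was that of 102431_at, with a smaller 1-hour difference of 0.60 (SD 0.14). The probe set 102743_at had 3931, 3287, 3196 and 3157. Here the 1-hour difference was 0.26 (SD 0.04), and the other 3 samples spanned 0.07 log2 units.

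The Mapt probe sets thus gave 1 direction but not 1 size. Probe sets 102431_at and 102742_g_at carry the same GenBank entry in the annotation, and 102743_at another. The suffix g marks probes that can be shared with another probe set of the array. Probe sequences were not used here, so whether the first pair shares probes was not tested. At 1 hour the signal of 102431_at was 2.42 times that of 102743_at, while at 2, 4 and 6 hours this ratio was 1.21, 1.44 and 1.24. For 102742_g_at over 102743_at the ratio was 1.36 at 1 hour, against 1.01, 1.18 and 0.975. For 102431_at over 102742_g_at, the pair with the same entry, it was 1.78 at 1 hour, against 1.2, 1.23 and 1.28. Each of these ratios was highest in the sample with the Gapdh ratio of 4.52 and the beta-actin ratio of 2.34. Which part of the tau transcript each probe set targets was not used here.

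The 1-hour difference at 102431_at was larger than most on the array, but this probe set was singled out after its values were seen. It was the only one of the 7 tested probe sets that lay 2-fold or more from the other samples at any time. In the 1-hour sample 1.78% of 7453 tested probe sets lay as far above the others and 4.56% as far below. In the 2-, 4- and 6-hour samples 2.99%, 3.01% and 3.1% of probe sets lay 2-fold or more away in either direction, and none of the 7 did. The share of all tested probe sets 2-fold away in any of the samples was not counted, so the 1 of 7 has no matching background. The 1-hour difference of 102431_at was 1.19 on the values as deposited and 1.23 with arrays scaled to equal medians.

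**Figure D1:**
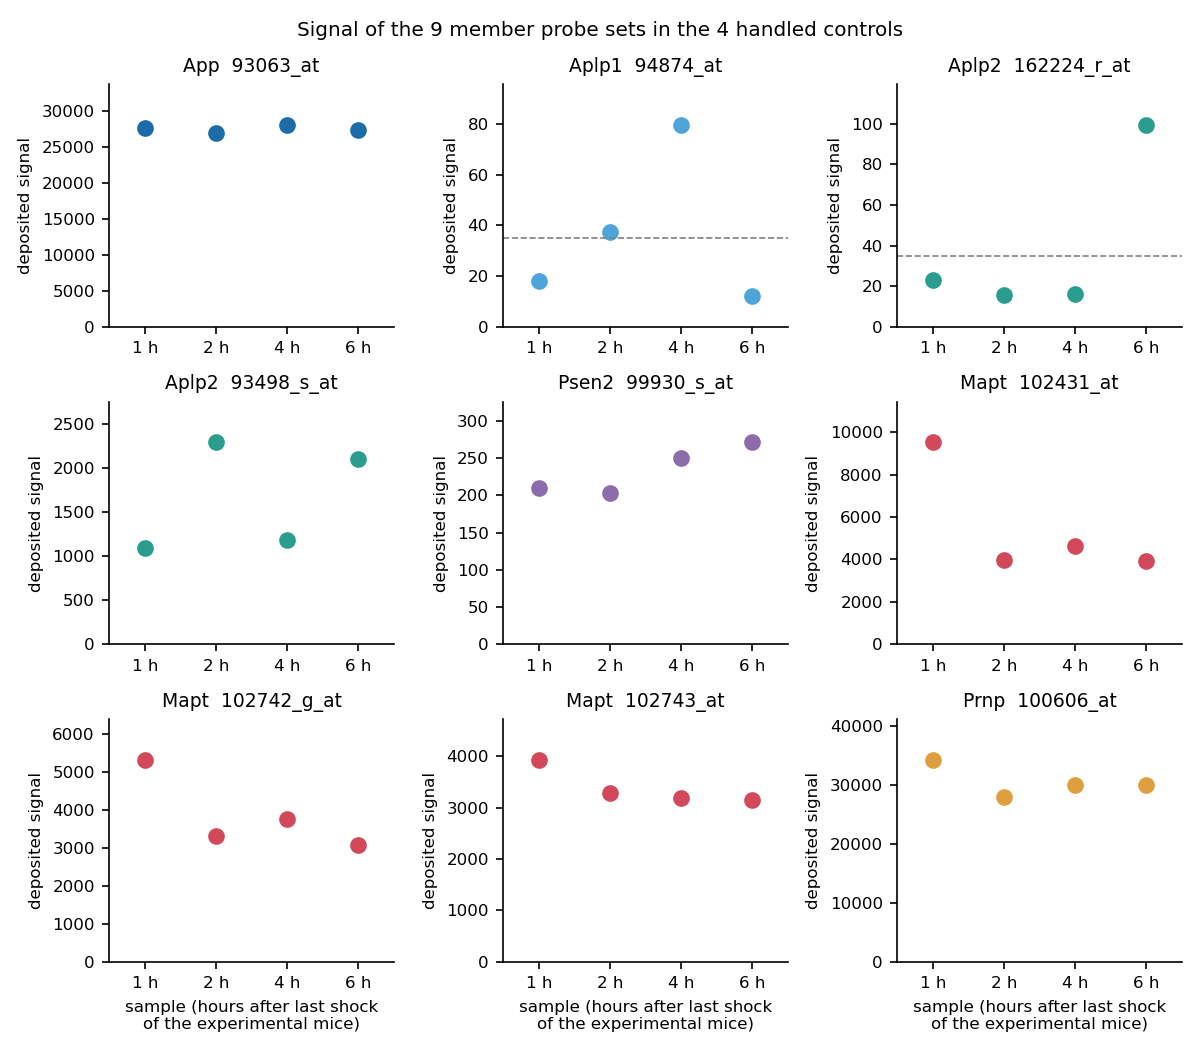
Deposited signal (linear scale from 0, arbitrary units) of each of the 9 probe sets, 1 point per sample, against the sample's time. The dashed line in the Aplp1 and Aplp2 162224_r_at panels is the floor of 35.1. The 1-hour point is highest in all 3 Mapt panels, Aplp2 93498_s_at is higher at 2 and 6 hours, and App is nearly level.

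App itself was nearly constant. Its probe set 93063_at had signals of 27643, 26865, 28027 and 27362 at 1, 2, 4 and 6 hours, so that the highest was 1.04 times the lowest. No sample stood out, and the SD was 489 around a mean of 27470 (n = 4). After quantile normalization the 1-hour value lay at -0.20 (SD 0.03). On the values as deposited it lay at 0.01 and with equal medians at 0.05, so the sign of the App difference depended on the scaling. The range of App over the samples, 0.22, was wider than in 8.47% of tested probe sets.

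Of the relatives of App, Aplp2 varied and Aplp1 gave only bounds. Aplp2 encodes a widely expressed relative that takes over functions of App in mice that lack it. Its probe set 93498_s_at had 1094, 2297, 1188 and 2107 at 1, 2, 4 and 6 hours. The samples formed a low pair at 1 and 4 hours and a high pair at 2 and 6 hours. The lower of the high pair lay 0.82 log2 units above the higher of the low pair, and the mean signals were 2202 and 1141, a ratio of 1.93. This pairing was noticed in the values and crosses the order of hours. In all, 1.85% of tested probe sets had both of these samples at least 0.5 log2 units above both others. Some markers of neurons in general had the same pairing. In 4 of 9 tested ones both the 2- and 6-hour samples lay above both others, by 0.71 for Syp, 0.49 for Syt1, 0.25 for Stmn2 and 0.13 for Eno2. Only 1 of the 9, Syp, reached the 0.5 log2 units used for that share. For the rest the same gap was negative, with -0.84 for Nefm, -0.20 for Thy1, -0.09 for Tubb3, -0.02 for Snap25 and -0.005 for Nefl. The share of all tested probe sets with any positive gap was not counted, so the 4 of 9 has no background to be read against. The part of neuronal content in the Aplp2 values was not tested. The suffix s marks probes that can match more than 1 transcript.

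The second Aplp2 probe set, 162224_r_at, had 23.2, 15.7, 16.2 and 99.5. It lay under the floor in 3 samples and above it at 6 hours, so it did not show the high 2-hour value of the other probe set. The suffix r marks a probe set that did not meet all of the array's probe design rules. Aplp1, the relative found mainly in neurons, had 17.9, 37.3, 79.7 and 12.2. It lay under the floor at 1 and 6 hours and near it at 2 hours, so these values give only bounds and carry no order. A low signal of this probe set does not show that Aplp1 RNA was scarce.

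Presenilin 2 had moderate and fairly even values. Its probe set 99930_s_at had 210, 203, 251 and 271 at 1, 2, 4 and 6 hours. The 4- and 6-hour samples were the higher pair, and the highest signal was 1.33 times the lowest. The range was 0.44 on the log2 scale, below the median of 0.56 over tested probe sets. The differences ran from -0.30 in the 2-hour sample (SD 0.17) to 0.29 in the 6-hour sample (SD 0.18).

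The prion gene was also steady. Its probe set 100606_at had 34259, 27891, 30027 and 29976, and the 1-hour signal was the highest, 1.23 times the lowest. The direction of that difference depended on scaling as it did for App. The 1-hour sample lay at -0.10 (SD 0.04) after quantile normalization, at 0.23 on the values as deposited and at 0.26 with equal medians. The brightest probe sets carried larger signals on the 1-hour array, whose 99th percentile was 10930 against 9462 to 10010 on the others, and quantile normalization removes such a difference. The range of Prnp after normalization, 0.12, was wider than in 1.77% of tested probe sets. Quantile normalization sets such bright values by their rank on each array. It made the 2- and 6-hour values equal for Prnp (14.966) and for App (14.844), though the deposited signals differed. The normalized ranges of both, and their percentiles, therefore depend on this step.

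**Figure D2:**
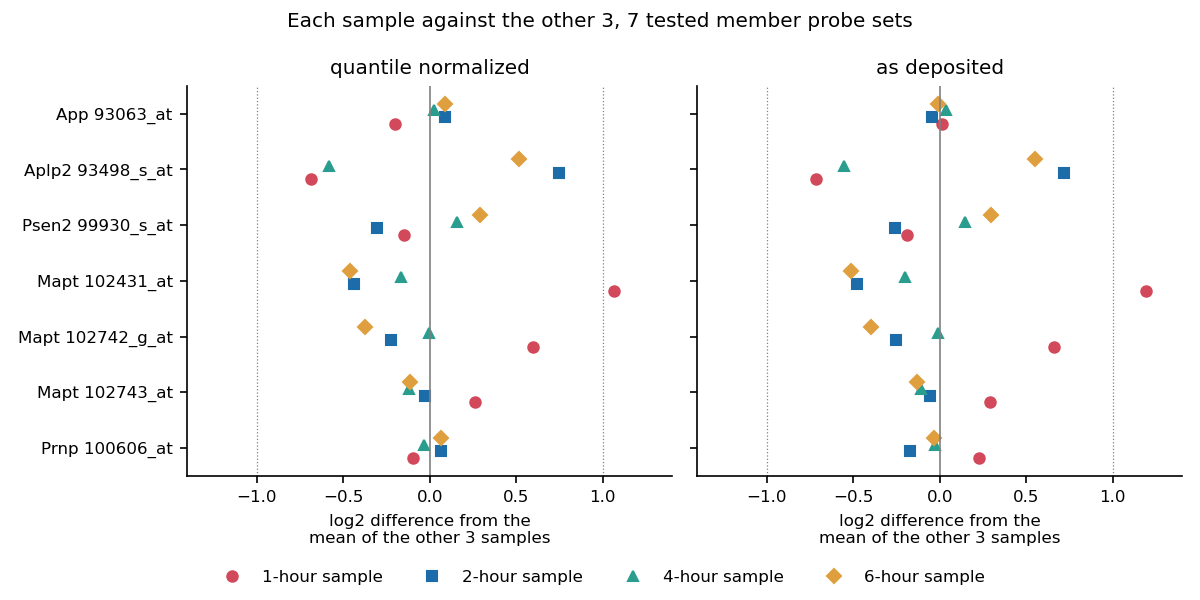
Log2 difference of each sample from the mean of the other 3 (horizontal axis) for the 7 tested probe sets, after quantile normalization (left) and on the values as deposited (right). Dotted lines mark 2-fold. Only the 1-hour value of Mapt 102431_at passes 2-fold, and the 1-hour values of App and Prnp change sign between the panels.

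The ranges of the members spread from the narrowest to the wide part of the array. A range of 1 log2 unit was passed by 2 of the 7 tested probe sets, Mapt 102431_at with 1.14 and Aplp2 93498_s_at with 1.08, and by 17.9% of all tested probe sets. The ranges at the 4 probe sets App, Psen2, Mapt 102743_at and Prnp lay below the median of 0.56. Without the 1-hour sample the range of Mapt 102431_at was 0.22 and that of Aplp2 93498_s_at was 0.998. In those 3 samples 9.04% of tested probe sets reached 1 log2 unit. The wide range at Mapt thus rested on the 1-hour sample, and that at Aplp2 did not.

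No member showed a linear trend over the hours that passed the test. In the limma fit 0 of 7 passed at an adjusted p under 0.05 (Benjamini and Hochberg over 7453 probe sets), where 0% of all tested probe sets did, and 0 of 7 had an unadjusted p under 0.05, against 6.24%. The lowest p among them was at Mapt 102431_at, with a fitted change of -0.82 from 1 to 6 hours (SE 0.38, unadjusted p = 0.067, limma adjusted p = 0.74). Without the 1-hour sample this fitted change was -0.02. For Mapt 102742_g_at it was -0.53 (SE 0.26) and for 102743_at -0.24 (SE 0.20), and without the 1-hour sample -0.13 and -0.08. Psen2 had 0.41 (SE 0.36), Aplp2 93498_s_at 0.40 (SE 0.49), App 0.15 (SE 0.16) and Prnp 0.07 (SE 0.15). The Aplp2 value was -0.21 without the 1-hour sample and -0.25 without the 6-hour sample, and without the 1-hour sample the App and Prnp values were 0.

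Other probe sets with the same course over the 4 samples were then sought for the 3 member probe sets with a range of at least 0.5. Likeness was the root-mean-square distance between log2 values, each centred on its own mean, over 4 samples and over at least 6712 candidate probe sets of other genes. It is a description of 4 arrays. For Mapt 102431_at the nearest were Nup50, a nuclear pore protein, Sod1, the cytosolic superoxide dismutase, and Nr1d1, a clock repressor, at distances of 0.05, 0.05 and 0.06. Sod1 had signals of 9197, 4050, 4401 and 4098, high at 1 hour and level afterwards. For Mapt 102742_g_at they were Hey1, a transcription factor of the Notch pathway, Pip4k2a, a lipid kinase, and Vta1, a protein of endosomal sorting, each at 0.02. For Aplp2 93498_s_at they were Atp8a1, a lipid flippase, Mef2c, a neuronal transcription factor, and Matr3, a nuclear matrix protein, at 0.06, 0.07 and 0.08. Mef2c had 169, 409, 183 and 314, with the same low pair and high pair as Aplp2.

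**Figure D3:**
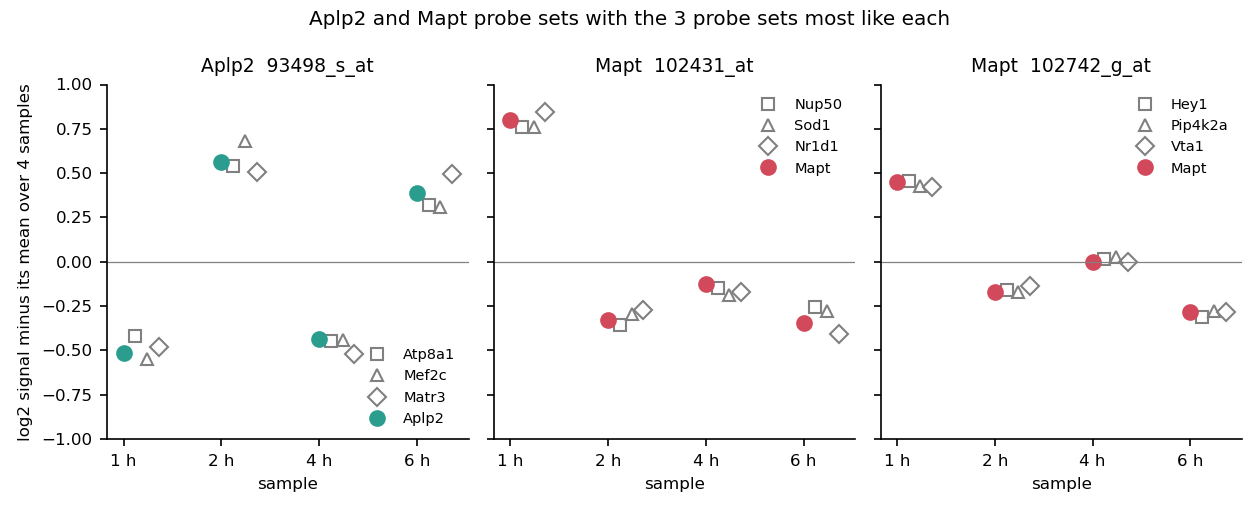
Log2 signal minus its own mean over the 4 samples (vertical axis) in each sample, for 3 member probe sets (filled circles) and the 3 probe sets nearest to each (open symbols, moved sideways for legibility). Mapt and its neighbours are high at 1 hour, and Aplp2 and its neighbours are high at 2 and 6 hours.

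The partners of these genes were read from 3 lists, chosen with earlier results of these data known. The first holds proteins that cut, bind or clear the amyloid precursor. Of 36 listed names 25 had a probe set and 22 were tested. By limma 0 of 22 had an adjusted p under 0.05 for a trend. Of the 22, 1 had an unadjusted p under 0.05, where 6.24% of all tested probe sets did. That gene was Apbb1, which encodes the Fe65 adaptor that binds the tail of App. It had 2583, 4285, 5076 and 4963 at 1, 2, 4 and 6 hours. The 1-hour sample was low and the other 3 were close (1-hour difference -0.89, SD 0.13). On the same normalized scale App lay at -0.20 (SD 0.03) at 1 hour. As deposited the 1-hour differences were -0.88 for Apbb1 and 0.01 for App. The median trend of the list was -0.09, against -0.02 over all tested probe sets.

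Other members of the first list with wide ranges had different courses. Apbb1ip, an adaptor best known from blood cells, had 130, 86.7, 203 and 206, higher at 4 and 6 hours. Sorl1, a sorting receptor that steers App away from cleavage, had 238, 336, 162 and 193, with its highest value at 2 hours. Adam9, a metalloprotease able to cut App, had 235, 232, 295 and 165, highest at 4 hours. Of the listed gamma-secretase subunits besides presenilin, Psenen and Aph1a were steadier in the last 3 samples. Ncstn and Aph1b, also listed, had no probe set of 1 symbol. Psenen had 554, 390, 422 and 445, and Aph1a had 400, 330, 308 and 280. Both were highest in the 1-hour sample, by 0.45 and 0.43. Adam10, the main alpha-secretase of neurons, had 486, 396, 391 and 305, a 1-hour difference of 0.49 (SD 0.21). In the 1-hour sample 11 of 22 genes were higher and 11 lower, their median was 0.01, and none was 2-fold away. Of all 7453 tested probe sets, 4079 were higher and 3373 lower in that sample, with a median of 0.05. Psenen, Aph1a and Adam10 here, and Cdk5 and Tubb4a in the next list, were picked after their values had been seen.

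The second list holds tau kinases and phosphatases and other microtubule-associated proteins. Of 35 names 32 had a probe set and 29 were tested. None had an adjusted p under 0.05 by limma, and 3 (Cdk5, Map1lc3a and Tubb4a) had an unadjusted p under 0.05, where 6.24% of all tested probe sets did. In the 1-hour sample 3 of 29 genes were 2-fold or more lower and 0 higher, against 4.56% and 1.78% of all tested probe sets, so calls in this sample leaned lower on the whole array. Map2, the dendritic relative of tau, had 25.4, 338, 103 and 268. Its 1-hour signal lay under the floor, so the difference of -2.59 (SD 0.87) is set by the floor and is a bound on a drop at least that large. Cdk5r1, the activator of the tau kinase Cdk5, had 66.1, 218, 211 and 130 (1-hour difference -1.46, SD 0.40). Map1lc3a, a microtubule-associated protein of autophagosomes, had 828, 1462, 1642 and 2142 (-1.04, SD 0.28).

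The remaining genes named from the second list did not share 1 course. Ppp2r2a, a regulatory subunit of the phosphatase that acts on tau, had 163, 170, 69.1 and 154, low at 4 hours alone. Cdk5 had 1403, 1848, 2141 and 2249, lowest at 1 hour, with a fitted change of 0.59 (SE 0.23, limma adjusted p = 0.74). Tubb4a, a beta-tubulin, had 5904, 9482, 9354 and 10925, also lowest at 1 hour. Over the whole list, the 1-hour sample was the higher for 13 genes and the lower for 16 (median -0.03), or for 15 and 14 with equal medians (median 0.01). Over all 7453 tested probe sets it was the higher for 4079 and the lower for 3373, or for 4199 and 3254 with equal medians. Of 9 tested markers of neurons in general, 6 were lower there and 3 higher, and their median was -0.54 (-0.47 as deposited and -0.43 with equal medians). Those with a probe set summed to 53441 in that sample and to 53337 to 57902 in the others, and none was under the floor in all samples. Other neuronal lists did not share that lean. In the 1-hour sample 3 of 5 tested CA1 markers, 4 of 6 interneuron markers, 2 of 2 CA3 and CA2 markers and 1 of 2 dentate markers were higher, so that over the 5 neuronal lists 13 were higher and 11 lower.

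**Figure D4:**
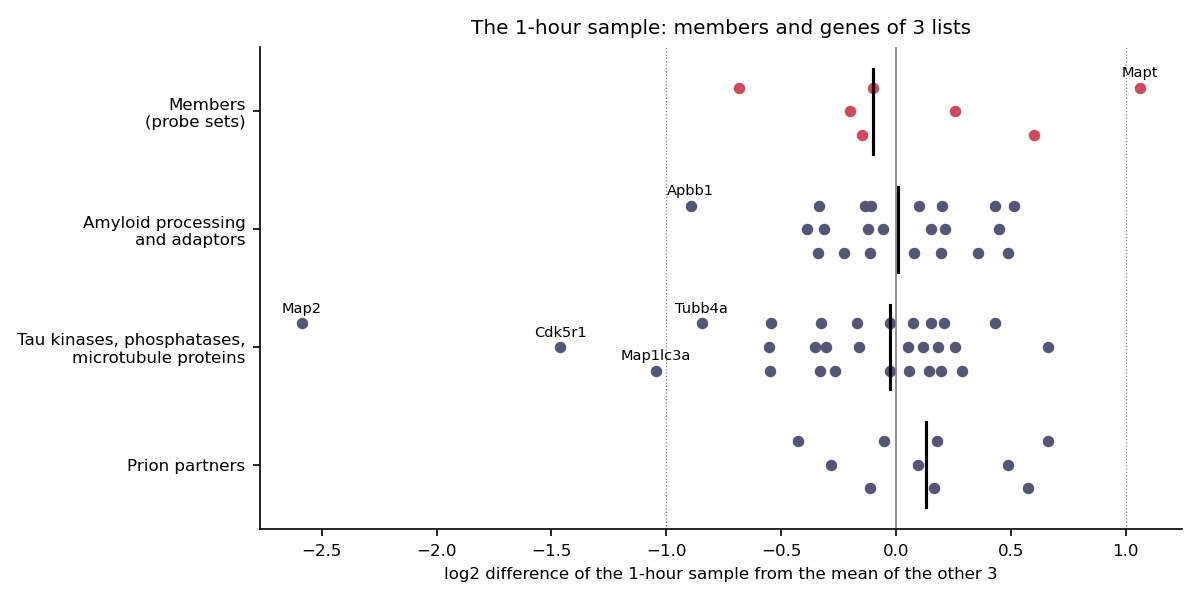
Log2 difference of the 1-hour sample from the mean of the other 3 (horizontal axis) for the 7 tested member probe sets and the tested genes of the 3 lists, 1 point each, with black bars at the medians and dotted lines at 2-fold. Mapt 102431_at lies at 1.06, while Cdk5r1 and Map1lc3a lie at -1.46 and -1.04. Map2 is drawn at -2.59, which is only a bound, since its 1-hour signal lay under the floor.

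The third list holds relatives and reported binding partners of the prion protein. Of 14 names 10 had a probe set, and all 10 were tested. None had an adjusted p under 0.05 by limma. Of the 10, 1, Cav1, had an unadjusted p under 0.05, where 6.24% of all tested probe sets did. Cav1, the caveolin of endothelial membranes, had 235, 243, 152 and 110 at 1, 2, 4 and 6 hours (fitted change -1.18, SE 0.43, limma adjusted p = 0.74). The summed signal of the 7 endothelial markers with a probe set was also lowest at 6 hours, with 1462 against 1694 to 2288, but only 3 of them, Eng, Vwf and Cdh5, were themselves lowest there. Their part was not tested. Stip1, a cochaperone that binds the prion protein, had 265, 621, 142 and 550. It shared with Aplp2 the high pair at 2 and 6 hours. Fyn, a kinase linked to both the prion protein and tau, had 2385, 1391, 1586 and 1536 (1-hour difference 0.66, SD 0.10). It was high in the 1-hour sample, as Mapt was. Adam10, which also sheds the prion protein, was described above. At 1 hour 6 of 10 genes were higher (median 0.13), and 7 of 10 with the other scalings. Of all 7453 tested probe sets 4079 were higher there (median 0.05), or 3931 as deposited and 4199 with equal medians. Prnp lay at -0.10 or 0.23 depending on the scaling.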

How the data were processed

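Per the labels, total RNA of 4 CA1 samples was hybridised to 1-colour arrays. The deposited values are probe set intensities on a linear scale, and the authors had scaled the arrays alike, judging from a mean of 500.3 in every column once the top and bottom 2% were trimmed. The array software is not given in the sources used here. After 66 control probe sets were set aside, the 12422 others were quantile normalized, floored at the 20th percentile and put on the log2 scale. Trends over time were fitted with limma 3.58.1 in R 4.3.3 to the 7453 probe sets at or above the 40th percentile (two-sided, Benjamini and Hochberg). P-values measure only the spread between these samples, and the number of arrays limits precision. The fit was checked on simulated data. Figures were drawn with matplotlib 3.10.9.

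Of the probe sets, 10833 had 1 symbol, 396 several and 1193 none, and 10817 were matched to the gene table of GRCm38.p6 for current symbols. Members and lists were chosen with earlier results of these data known. Beside the members, the 3 nearest probe sets of each varying member and the 4 genes of each partner list with the widest range are named, as fixed in the design. A list gene entered by its brightest probe set. Alternatives were other scalings, floors, filters and variance priors, and leaving out each sample.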

Additional observations from a re-analysis of the deposited data

Results flagged for a closer look

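On the deposited signals, 3 member probe sets had 1 sample far from the other 3, judged by its gap to the nearest other sample as a share of the whole range (Dixon's critical value for 4 samples). By chance about 1 in 20 groups passes such a limit. Mapt 102431_at had a share of 0.877, with 9518 at 1 hour against 4611 in the next sample. Mapt 102743_at had 0.832, with 3931 at 1 hour against 3287. The third Mapt probe set, 102742_g_at, had 0.696, within the limit. Aplp2 162224_r_at had 0.911, with 99.5 at 6 hours against 23.2, and its other 3 values lay under the floor. On the normalized log2 scale the Mapt shares were 0.806 and 0.766, within the limit. Among all tested probe sets, which leave out Aplp2 162224_r_at, 6.1% passed the limit at either end, and 3.69% with their highest signal.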

How the results depend on the processing

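All 7 member trends stayed above an adjusted p of 0.05 under every alternative run (limma adjusted p 0.137 to 1). The sign of the Prnp trend turned on the values as deposited (-0.10) and with equal medians (-0.11). Leaving out each sample in turn, the Aplp2 trend ran from -0.25 to 0.86, the App trend from 0 to 0.24 and the Prnp trend from 0 to 0.14. The exact 0 arises because quantile normalization of 3 arrays gave these bright probe sets equal values in the 2- and 6-hour samples. As deposited, the App difference was 0.012 at 1 hour and -0.043 at 2 hours; with equal medians it was 0.049 and -0.095. The Prnp difference at 1, 2 and 6 hours was 0.23, -0.17 and -0.030 as deposited and 0.26, -0.22 and -0.034 with equal medians. With each sample left out and the rest normalized anew, the range ran from 0.21 to 1.17 (Mapt 102431_at), 0.27 to 0.74 (102742_g_at), 0.067 to 0.29 (102743_at), 0.064 to 0.23 (App) and 0.056 to 0.14 (Prnp), lowest each time without the 1-hour sample. The number of probe sets with a trend was 0 to 3 on leaving out a sample, 3 being without the 2-hour sample, and 0 under the other alternatives. The floor, the filter and the variance prior changed the direction of no member trend. The deposited values carry no detection calls, so Aplp1 and the dim Aplp2 probe set have only bounds.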
